A study of Mus musculus with 12 samples.

Results

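The 10 genes described here encode the enzymes and the transporter that divide arginine between nitric oxide and the polyamines in macrophages: Arg1, Arg2, Nos2, Ass1, Asl, Slc7a2, Odc1, Sms, Srm and Sat1. They were chosen by name from the 55401 genes counted, each is on 1 row of both count tables, and all 10 passed the filter on low counts. Bulk RNA-seq was performed on tumor-associated macrophages (TAMs) sorted from subcutaneous tumors of B16-F10, a mouse melanoma cell line, in 4 groups of 3 samples. WT TAMs came from AMPKfl/fl mice, in which the gene of the AMPK catalytic subunit α1 carries loxP sites, and AMPK-KO TAMs from AMPKfl/flLyz2cre/cre mice, in which the Lyz2 promoter drives Cre in myeloid cells. By the methods, both were taken on day 15. The labels spell the driver as Lyz3 in AMPK-KO replicate 2 and as Lyz4 in replicate 3 in the genotype entry, whereas their titles give Lyz2. Early-stage TAMs were taken on day 8 and late-stage TAMs on day 15 from mice labelled WT, for which no floxed allele or Cre is named. The labels give no treatment for any group, and the methods describe mice of 5 weeks on a C57BL/6 background, with female mice as tumor hosts.

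Arginine enters macrophages through cationic amino acid transporters, among them the one encoded by Slc7a2. Inducible nitric oxide synthase (Nos2) turns it into nitric oxide and citrulline, and argininosuccinate synthase (Ass1) and argininosuccinate lyase (Asl) rebuild arginine from citrulline. The arginases, Arg1 in the cytosol and Arg2 in mitochondria, split the same substrate into urea and ornithine, which ornithine decarboxylase (Odc1) commits to polyamines. Spermidine synthase (Srm) and spermine synthase (Sms) extend the chain, and spermidine/spermine acetyltransferase (Sat1) marks polyamines for breakdown and export. Arg1 is widely used as a marker of alternatively activated and tumor-associated macrophages, and Nos2 of macrophages stimulated with interferon gamma.

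RefSeq upstream sequences on GRCm38.p6 were at hand for 4 of the 10 genes (Ass1, Odc1, Sat1 and Sms). Shown here are those of Odc1 and Ass1, which changed in the comparisons that follow, and of Sat1, which was called in neither. Each is the stretch of the 250 bases before the RefSeq start that lies outside the GENCODE gene, written 5′ to 3′ on the strand of the gene. Capitals mark the GC box GGGCGG on either strand.
Odc1, chr12:17544623-17544793, plus strand: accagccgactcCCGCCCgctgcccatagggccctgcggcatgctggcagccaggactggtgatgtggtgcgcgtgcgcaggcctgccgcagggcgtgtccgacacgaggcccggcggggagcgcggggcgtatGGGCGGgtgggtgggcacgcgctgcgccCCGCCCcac
Ass1, chr2:31470020-31470206, plus strand: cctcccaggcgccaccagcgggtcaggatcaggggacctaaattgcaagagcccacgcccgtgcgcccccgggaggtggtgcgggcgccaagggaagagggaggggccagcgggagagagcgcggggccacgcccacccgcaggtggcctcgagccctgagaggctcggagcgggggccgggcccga
Sat1, chrX:155216450-155216699, minus strand: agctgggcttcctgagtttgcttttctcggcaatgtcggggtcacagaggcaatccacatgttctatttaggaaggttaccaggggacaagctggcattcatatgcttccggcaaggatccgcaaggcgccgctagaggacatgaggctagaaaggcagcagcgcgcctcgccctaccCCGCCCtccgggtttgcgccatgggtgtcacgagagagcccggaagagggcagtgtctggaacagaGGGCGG
The Odc1 stretch of 171 bases held 3 GC boxes and the Sat1 stretch of 250 bases held 2, which did not overlap, and the Ass1 stretch of 187 bases held none. Of all 32851 RefSeq windows cut to the same lengths, 19.6%, 32.7% and 22.2% held at least 1. The E-box CACGTG, the gamma-activated site TTCNNNGAA and the interferon response element, searched on both strands, were in none of the 3 stretches. The Sms stretch of 250 bases, not shown, held 1 E-box, which is in 6.02% of windows of that length, and no GC box. In the windows cut to the length of the Odc1 stretch they were found in 3.41%, 5.01% and 2.12%. A match or its absence describes these letters only.

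Library totals ranged from 71019494 to 84470374 counts. Of 10 macrophage markers, all were detected in every group, and Adgre1, which encodes the sorting antigen F4/80, had 856 to 1003 CPM (the read count scaled to the size of its library) in WT and AMPK-KO libraries and 810 to 954 CPM in early-stage and late-stage libraries. Prkaa1, the gene of AMPK α1, fell in AMPK-KO from between 62.8 and 68.8 CPM to between 40.8 and 47.0 CPM (log2 fold change −0.60, SE 0.07, adjusted p = 2.26e-04). Reads were summed over the whole gene, so this value does not measure the floxed part. Lyz2, which macrophages usually express strongly, had 9.16 to 13.5 CPM in WT and 9.16 to 13.5 CPM in AMPK-KO libraries. In the stage experiment, scaled separately, it had 1091 to 3008 CPM, although Adgre1 was at similar CPM in both experiments. Lyz2 therefore does not tell the libraries labelled AMPKfl/fl from those labelled with Cre, and what set its level was not tested. Counts of Uty, Kdm5d, Eif2s3y and Ddx3y, which lie on the Y chromosome, summed to 9229 to 12183 counts in WT and AMPK-KO libraries and 3435 to 4035 in early-stage libraries, but to at most 4 in late-stage libraries. Xist had 60 to 158 counts in WT, 0 to 8 in AMPK-KO, 13568 to 22094 in early-stage and 23982 to 41700 in late-stage libraries. Each early-stage library thus held both Xist and Y-linked transcripts, and late-stage libraries held Xist with almost no Y-linked counts. Stage and the sex make-up of the cells therefore cannot be told apart, and the Y-linked counts go against the female hosts of the methods. Nothing in the labels says that replicates came from separate animals, so p-values measure the spread between these samples, which may be technical. In bulk samples, fewer cells of a type and less RNA per cell cannot be told apart.

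To learn how loss of AMPK bears on the transcripts of these genes, AMPK-KO TAMs were compared with WT TAMs. Compared with WT, AMPK-KO TAMs carried more Nos2, Ass1, Slc7a2 and Arg2 transcript and less Srm and Odc1, while Arg1, the most abundant of the set, had 918 ± 35.8 CPM in WT and 917 ± 13.9 CPM in AMPK-KO (SD, n = 3). Of the 10 genes, 4 were higher and 2 lower at an adjusted p under 0.05 (edgeR quasi-likelihood test, adjusted over all 17532 genes tested), where 11.3% of all genes tested were higher and 9.78% lower. Their median log2 fold change was 0.08, against −0.0037 for all genes tested. The groups did not overlap for 6 of the 10, as for 37.2% of all genes tested. These 6 calls held under every alternative tried. All values are TMM-scaled CPM and are given for replicates 1, 2 and 3 in that order.

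Nos2 (ENSMUSG00000020826.9) had 161, 135 and 153 CPM in WT and 304, 290.4 and 294 CPM in AMPK-KO. Every AMPK-KO library was above every WT library, and the mean went from 149.5 ± 13.2 to 296 ± 6.75 (SD, n = 3). This was a 1.98-fold rise (log2 fold change 0.99, SE 0.06, adjusted p = 3.27e-06), a change matched or passed in size by 8.61% of all genes tested. The arginine transporter Slc7a2 (ENSMUSG00000031596.15, chromosome 8, 40862396 to 40922308, plus strand) had 17.8, 16.3 and 16.8 CPM in WT and 39.9, 36.8 and 30.5 CPM in AMPK-KO. The groups were well apart although AMPK-KO replicate 3 was the lowest of its group, and the rise was 2.10-fold (log2 fold change 1.07, SE 0.10, adjusted p = 4.48e-05). Slc7a1, another arginine uptake gene, had more CPM than Slc7a2, with means of 49.5 in WT and 43.0 in AMPK-KO. It was not called (log2 fold change −0.20, SE 0.08, adjusted p = 0.0958) and is named here after its values were seen.

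Of the enzymes that rebuild arginine from citrulline, Ass1 rose and Asl was not called. Ass1 (ENSMUSG00000076441.9, chromosome 2, 31470207 to 31520672, plus strand) had 59.8, 62.5 and 53.9 CPM in WT and 113, 109.6 and 136 CPM in AMPK-KO. The rise was 2.04-fold (log2 fold change 1.03, SE 0.09, adjusted p = 2.42e-05). Gm5424, a gene 99.5% identical to Ass1 over 1240 bases, had 1014 to 1397 counts in WT and 1976 to 2847 in AMPK-KO, so reads may be shared between them, and with its counts added to Ass1 the log2 fold change was 1.01. Asl (ENSMUSG00000025533.15, chromosome 5, 130011258 to 130029247, minus strand), the next enzyme, had 44.7, 50.9 and 51.1 CPM in WT and 42.5, 42.7 and 47.5 CPM in AMPK-KO. These ranges overlapped, and the difference was −0.14 on the log2 scale (SE 0.07, adjusted p = 0.215).

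The arginases differed from each other. Arg1 (ENSMUSG00000019987.9, chromosome 10, 24915221 to 24927484, minus strand) had 883, 955 and 916 CPM in WT and 908, 933 and 911 CPM in AMPK-KO. All 3 AMPK-KO libraries lay within the WT range, and the log2 fold change was −0.0011 (SE 0.04, adjusted p = 0.990). Arg2 (ENSMUSG00000021125.6, chromosome 12, 79130777 to 79156301, plus strand) was far less abundant, with 4.59, 4.67 and 4.68 CPM in WT and 7.88, 7.09 and 7.0 CPM in AMPK-KO. It rose 1.58-fold (log2 fold change 0.66, SE 0.12, adjusted p = 0.00333).

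Both early steps of polyamine synthesis were lower in AMPK-KO TAMs. Srm (ENSMUSG00000006442.10, chromosome 4, 148591503 to 148594993, plus strand) had 58.1, 60.6 and 62.0 CPM in WT and 38.3, 43.0 and 37.6 CPM in AMPK-KO, which do not overlap, and fell 1.52-fold (log2 fold change −0.60, SE 0.07, adjusted p = 1.39e-04). Odc1 (ENSMUSG00000011179.8, chromosome 12, 17544794 to 17551505, plus strand) had 297, 315 and 304 CPM in WT and 249, 254 and 264 CPM in AMPK-KO. Its groups were also apart, but the change was smaller, at −0.26 on the log2 scale (SE 0.05, adjusted p = 0.00306), and 45.4% of all genes tested changed at least as much. Sms (ENSMUSG00000071708.11, chromosome X, 157443855 to 157492287, minus strand), which makes spermine, had 24.0, 29.4 and 30.7 CPM in WT and 29.8, 30.4 and 30.8 CPM in AMPK-KO, so that only WT replicate 1 stood lower (log2 fold change 0.11, SE 0.09, adjusted p = 0.449). The processed pseudogene Sms-ps on the same chromosome matches Sms over 1101 bases at 100% and took 524 to 777 counts in these libraries, so the Sms value is less certain. Sat1 (ENSMUSG00000025283.15, chromosome X, 155213132 to 155216449, minus strand), which starts polyamine breakdown, had 348, 378 and 357 CPM in WT and 353, 368 and 391 CPM in AMPK-KO, which overlapped and differed by 0.04 on the log2 scale (SE 0.05, adjusted p = 0.687).

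Markers of other cells moved along with these differences. The 5 monocyte markers summed to 446 to 488 CPM in WT and 774 to 803 CPM in AMPK-KO, 3 of them higher, among them Ly6c2 (17.5 to 17.7 CPM in WT and 37.1 to 43.6 CPM in AMPK-KO). Ly6c2 encodes Ly6C, which the study's methods give as negative and 2 legends as positive in the gate for TAMs. All 7 NK cell markers (44.7 to 54.7 CPM in WT, 123 to 130 CPM in AMPK-KO), all 8 T cell markers (98.2 to 115 and 171 to 174 CPM), all 7 conventional dendritic cell markers (88.2 to 98.8 and 135 to 143 CPM) and all 6 fibroblast markers (570 to 616 and 741 to 821 CPM) were higher. Of 7 melanoma markers, 6 were lower (998 to 999 and 676 to 716 CPM). Of 10 neutrophil markers, 4 were higher (112 to 119 and 184 to 186 CPM), whereas the neutrophil genes Ly6g and Ngp had no count in any of the 6 libraries. Of 6 B cell markers 2 were higher and 4 lower (139 to 146 and 184 to 189 CPM). Their log2 fold changes ran from −6.47 to 0.56, with a median of −4.06. Of 5 plasmacytoid dendritic cell markers 2 were lower, with log2 fold changes of the list down to −4.22. Of 6 endothelial markers 2 were higher and 1 lower, of 6 erythroid markers 4 lower, and of 6 basophil and mast cell markers 1 higher. Of 10 macrophage markers 2 were higher and 1 lower (12560 to 13955 and 12723 to 13091 CPM). The part of these cells in the enzyme differences was not tested.

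**Figure D1:**
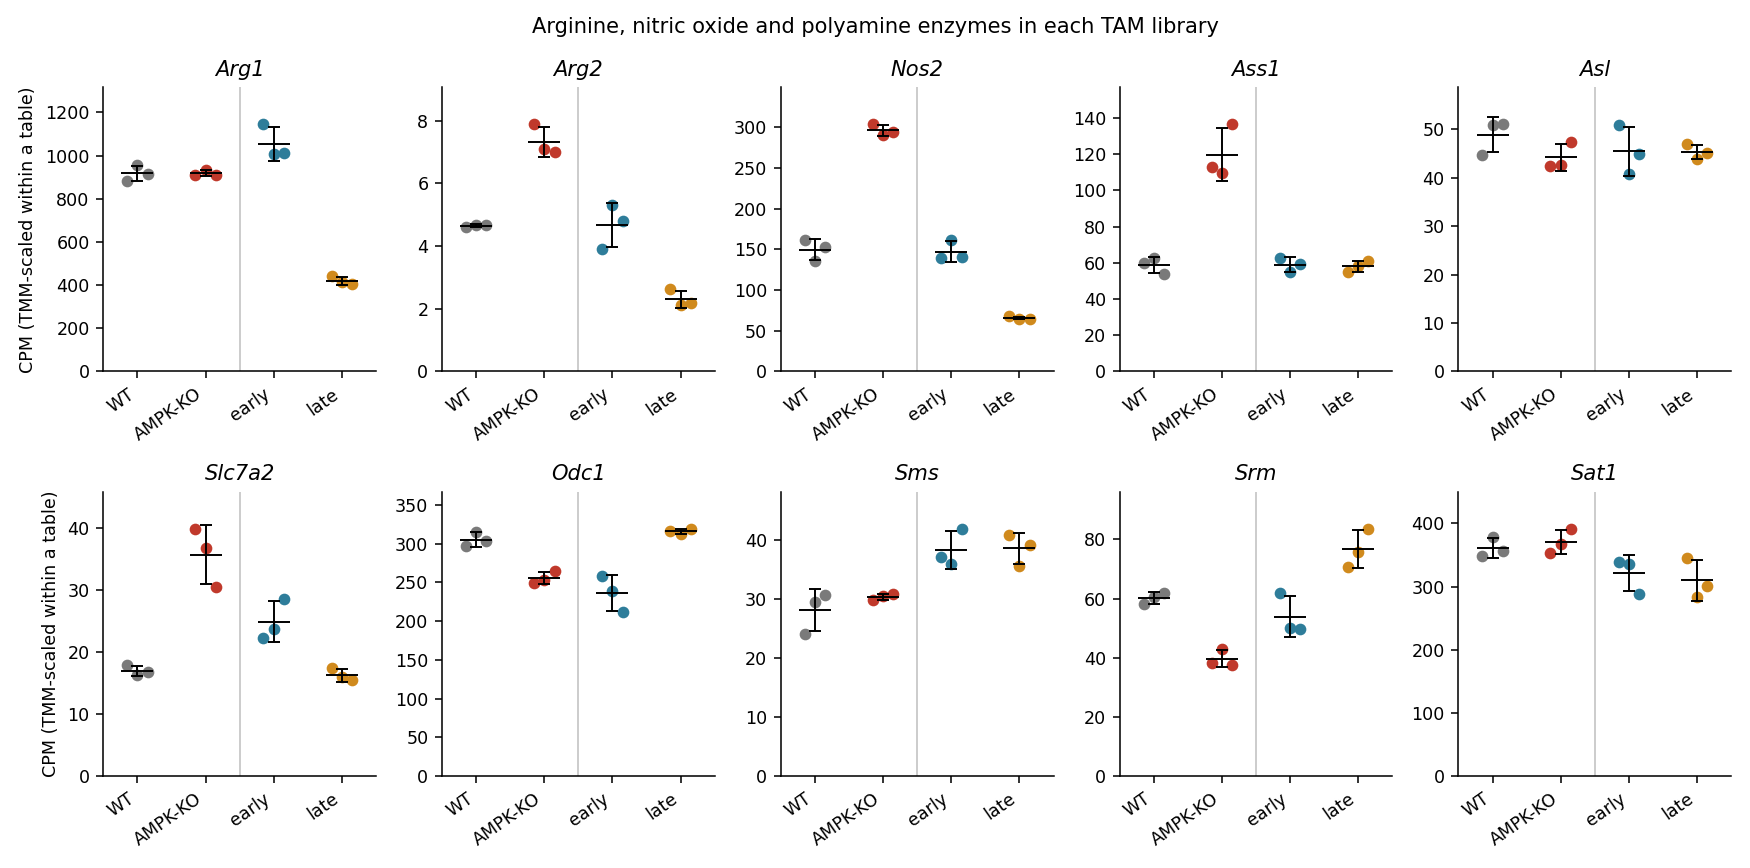
CPM of the 10 genes (vertical axis, TMM-scaled within each count table, starting at 0) in the 3 libraries of each group (points), with the mean and SD (black bars); a grey line separates the 2 tables, which were scaled separately. Nos2, Ass1, Slc7a2 and Arg2 sit higher in AMPK-KO than in WT, Arg1 does not, and Arg1, Nos2, Arg2 and Slc7a2 sit lower in late-stage than in early-stage TAMs.

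To follow the enzymes during tumor growth, late-stage TAMs were compared with early-stage TAMs. Compared with early-stage TAMs, late-stage TAMs exhibited less Arg1, Nos2, Arg2 and Slc7a2 transcript and more Srm and Odc1. Of the 10 genes, 2 were higher and 4 lower over the 17630 genes tested, of which 4.31% were higher and 4.88% lower. The median log2 fold change of the 10 was −0.04, against 0.0027 for all genes tested. The groups did not overlap for 6 of the 10, as for 31.2% of all genes tested. Single libraries mattered more here: the number called was 3 without early-stage replicate 2, 5 without late-stage replicate 1, and 2 without late-stage replicate 2 or without late-stage replicate 3. Arg1 and Nos2 were called under every alternative tried.

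Arg1 had 1145, 1008 and 1011 CPM in early-stage and 440.3, 414 and 406 CPM in late-stage TAMs. Every early-stage library was far above every late-stage library, and the mean went from 1055 ± 78.1 to 420.1 ± 18.0 (SD, n = 3). This was a 2.51-fold fall (log2 fold change −1.33, SE 0.08, adjusted p = 1.34e-05), with 4.16% of all genes tested changing at least as much. Arg2 had 3.91, 5.30 and 4.81 CPM in early-stage and 2.62, 2.11 and 2.18 CPM in late-stage TAMs, a 2.03-fold fall (log2 fold change −1.02, SE 0.20, adjusted p = 0.0112). Without early-stage replicate 2, late-stage replicate 2 or late-stage replicate 3 the Arg2 call was lost, with adjusted p from 0.0603 to 0.0684.

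Nos2 had 139, 162 and 141 CPM in early-stage and 67.5, 65.0 and 64.7 CPM in late-stage TAMs, and the groups were far apart. It fell 2.24-fold (log2 fold change −1.16, SE 0.08, adjusted p = 4.20e-05). Slc7a2, which supplies its substrate, had 22.3, 23.8 and 28.6 CPM in early-stage and 17.4, 15.9 and 15.5 CPM in late-stage TAMs. It fell 1.53-fold (log2 fold change −0.62, SE 0.12, adjusted p = 0.0112), and the call was lost without late-stage replicate 2 or late-stage replicate 3 (adjusted p = 0.0660 and 0.0700). Slc7a1 again had more CPM, with means of 63.5 in early-stage and 69.3 in late-stage TAMs, and was not called (log2 fold change 0.13, SE 0.11, adjusted p = 0.523). Neither enzyme of arginine rebuilding was called. Ass1 had 62.9, 54.7 and 59.2 CPM in early-stage and 54.8, 58.3 and 60.9 CPM in late-stage TAMs, which overlapped and differed by −0.02 on the log2 scale (SE 0.08, adjusted p = 0.906). Asl had 50.9, 40.8 and 44.9 CPM in early-stage and 46.9, 44.0 and 45.1 CPM in late-stage TAMs (log2 fold change −0.0067, SE 0.09, adjusted p = 0.977).

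Odc1 and Srm, the polyamine genes that were lower in AMPK-KO TAMs, were higher in late-stage TAMs. Odc1 had 259, 239 and 211 CPM in early-stage and 317, 313 and 319 CPM in late-stage TAMs, which do not overlap, and rose 1.34-fold (log2 fold change 0.42, SE 0.08, adjusted p = 0.0122). Srm had 61.9, 49.9 and 49.7 CPM in early-stage and 70.6, 75.7 and 83.5 CPM in late-stage TAMs and rose 1.42-fold (log2 fold change 0.51, SE 0.11, adjusted p = 0.0169). Both calls were lost without early-stage replicate 2, late-stage replicate 2 or late-stage replicate 3, and that of Odc1 also without late-stage replicate 1. The adjusted p values were then 0.0545 to 0.0689 for Odc1 and 0.0709 to 0.0945 for Srm. Sms had 37.0, 35.9 and 41.8 CPM in early-stage and 40.8, 35.6 and 39.1 CPM in late-stage TAMs (log2 fold change 0.01, SE 0.10, adjusted p = 0.964), and Sms-ps took 781 to 1267 counts. Sat1 had 339, 336 and 288 CPM in early-stage and 346, 283 and 300.5 CPM in late-stage TAMs (log2 fold change −0.05, SE 0.10, adjusted p = 0.794). Both genes are X-linked, and the sex difference between the stages was not tested for its part in these values.

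Other markers also differed by stage. The 5 monocyte markers summed to 519 to 608 CPM in early-stage and 209 to 238 CPM in late-stage TAMs, with 4 of 5 lower, and Ly6c2 went from between 28.6 and 31.7 CPM to between 6.83 and 9.46 CPM. Of 7 NK cell markers 5 were lower (100.1 to 116 and 58.3 to 70.5 CPM), of 7 melanoma markers 5 were lower (1662 to 1806 and 766 to 1202 CPM) and of 6 fibroblast markers 3 were lower (801 to 878 and 393 to 555 CPM). The called monocyte, NK cell, fibroblast and neutrophil markers stood on the same side as Nos2, Slc7a2 and Arg2 in both comparisons. For neutrophils this rested on 2 of 10 markers by stage. Other lists did not: called T cell markers were higher in both comparisons, and called melanoma and erythroid markers lower in both. Called B cell, conventional dendritic cell and endothelial markers were split in direction within a comparison. Of 6 B cell markers 4 were higher (146 to 152 and 246 to 310.3 CPM), as were 4 of 8 T cell markers (168 to 185 and 215 to 246 CPM). The summed macrophage markers had 9718 to 12143 CPM in early-stage and 12743 to 12832 CPM in late-stage TAMs, with 1 of 10 higher. Of the other lists, 2 of 10 neutrophil markers, 1 of 6 endothelial and 1 of 6 erythroid markers were lower, 2 of 7 conventional dendritic cell markers were higher and 1 lower, and no plasmacytoid dendritic cell, basophil or mast cell marker was called. What these cells, or the sex of the cells, contributed to the enzyme differences was not tested.

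The comparisons share no library, and 5 genes were called in both, all in opposite directions. Nos2, Arg2 and Slc7a2 were higher in AMPK-KO and lower in late-stage TAMs, and Odc1 and Srm the reverse. Of all 16812 genes tested in both tables, 822 were called in both, and 44.5% of these had opposite directions. Ass1 was called in AMPK-KO against WT (1.03 on the log2 scale, and −0.02 by stage), and Arg1 in late-stage against early-stage (−1.33, and −0.0011 in AMPK-KO). Whether the effects differed between the comparisons was not tested. Asl, Sms and Sat1 were called in neither. WT TAMs, by the methods also of day 15 but scaled separately, did not match late-stage TAMs throughout. Mean Arg1 was 918 CPM in WT, 1055 in early-stage and 420.1 in late-stage TAMs, and mean Nos2 149.5, 147 and 65.7. Arg2 in WT was likewise near its early-stage level, Slc7a2 and Odc1 were nearer the late-stage level, and Srm lay between. What set these levels was not tested.

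**Figure D2:**
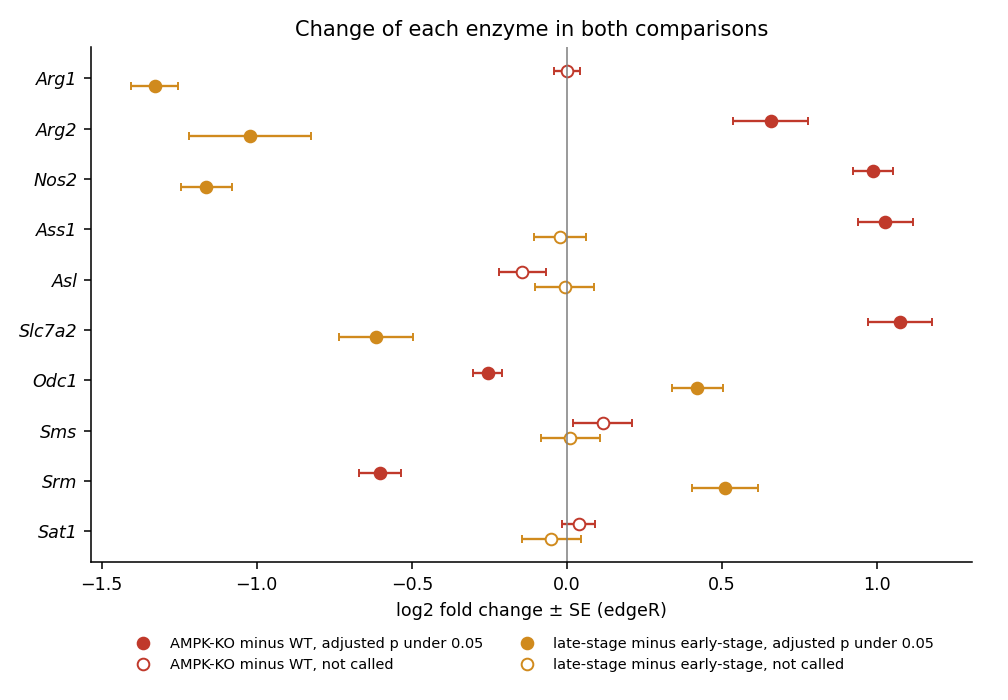
Log2 fold change with its SE (horizontal axis) of each gene in AMPK-KO against WT (red) and in late-stage against early-stage TAMs (orange); filled points have an adjusted p under 0.05. The 5 genes called in both, Arg2, Nos2, Slc7a2, Odc1 and Srm, lie on opposite sides of 0, while Arg1 is at −0.0011 in AMPK-KO and −1.33 by stage.

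Ratios of read counts within a library, which do not depend on library scaling, set 2 transcripts beside each other. They were not corrected for gene length and do not measure protein or the use of arginine. The log2 ratio of Arg1 to Nos2 was 2.46, 2.82 and 2.58 in WT and 1.58, 1.68 and 1.63 in AMPK-KO. The geometric mean was 6.15 Arg1 reads per Nos2 read in WT and 3.10 in AMPK-KO. By stage, where both genes fell, the log2 ratio was 3.05, 2.64 and 2.85 in early-stage and 2.70, 2.67 and 2.65 in late-stage TAMs, and these overlapped. Arg1 to Arg2 was 7.63 ± 0.05 in WT and 6.97 ± 0.11 in AMPK-KO (SD, n = 3) without overlap, and 7.83 ± 0.33 and 7.52 ± 0.11 by stage with overlap. The log2 ratio of Odc1, which starts polyamine synthesis, to Sat1, which starts their breakdown, was −0.24 ± 0.02 in WT and −0.53 ± 0.03 in AMPK-KO. It was −0.44 ± 0.05 in early-stage and 0.03 ± 0.14 in late-stage TAMs, where late-stage replicate 1 at −0.13 was the lowest but still above the early-stage libraries.

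**Figure D3:**
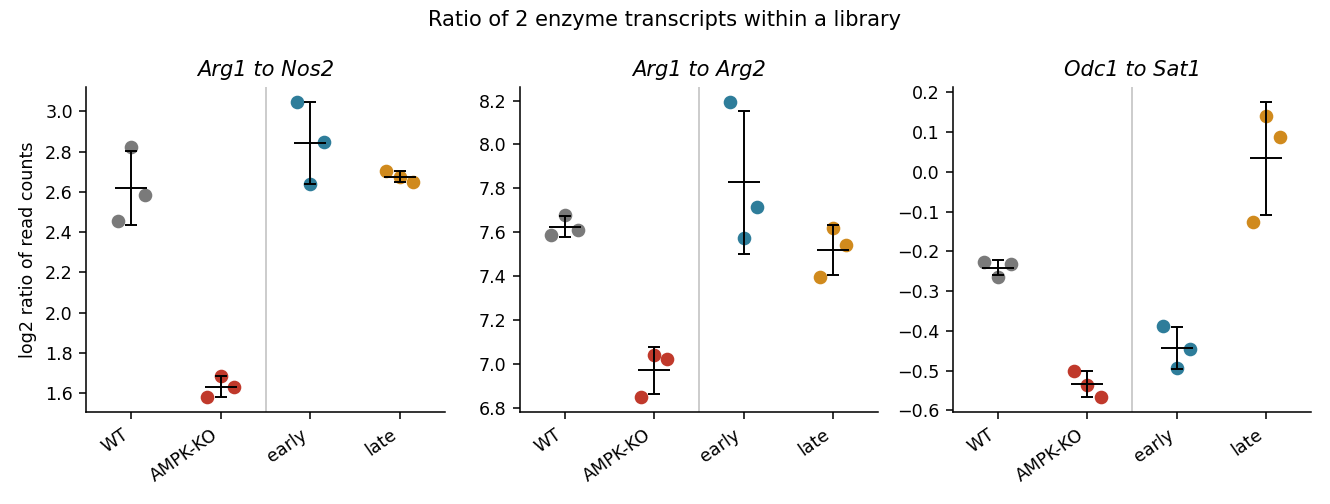
Log2 ratio of read counts of 2 genes in the same library (vertical axis, not starting at 0) for Arg1 to Nos2, Arg1 to Arg2 and Odc1 to Sat1, with points for the 3 libraries of each group and black bars for mean and SD. Arg1 to Nos2 separates WT (2.46 to 2.82) from AMPK-KO (1.58 to 1.68) but not early-stage from late-stage TAMs.

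Divided by the length of all exons of a gene in GENCODE M21, levels can be set beside each other, as CPM per kilobase. In WT TAMs the order was Arg1 (412), Sat1 (130.2), Odc1 (89.7), Srm (37.7), Nos2 (33.9), Ass1 (24.3), Asl (10.1), Sms (4.66), Arg2 (3.25) and Slc7a2 (1.86), and the neighbours whose libraries overlapped were Srm and Nos2. In AMPK-KO TAMs Nos2 (67.1) and Ass1 (49.5) stood above Srm (24.8), and Arg2 (5.13) and Sms (5.04) overlapped. In early-stage TAMs Arg1 stood at 473, and Srm (33.7) and Nos2 (33.3), as well as Arg2 (3.27) and Slc7a2 (2.73), overlapped. In late-stage TAMs Arg1 (189) was still highest, Nos2 (14.9) had moved below Ass1 (24.0), and Slc7a2 (1.78) overlapped with Arg2 (1.61). The length of Nos2 comes from an earlier version of its gene model than the files use. All annotated exons count toward a length, whether or not these TAMs used them, so the order is approximate. Reads shared with Gm5424 and Sms-ps may also affect Ass1 and Sms.

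The wider pathway was followed in 82 genes on 12 lists, of which 81 are in the tables and 74 were tested in each comparison. In AMPK-KO TAMs 16 were higher and 12 lower, beside 11.3% and 9.78% of all genes tested (median log2 fold change −0.02, against −0.0037 for all genes tested). Among 10 regulators of Nos2, 6 rose and none fell, read against the same 11.3% and 9.78%, with a rise in Irf1, a transcription factor induced by interferon gamma. Irf1 went from 143.6 ± 1.26 to 299 ± 11.1 CPM (log2 fold change 1.06, SE 0.05, adjusted p = 3.30e-07). Nfkb1, Irf8, Ifngr1 and Hif1a rose by 0.37 to 0.40 on the log2 scale. Of 10 regulators of Arg1, 6 also rose: the interleukin 10 receptor gene Il10ra (208 ± 5.67 to 331 ± 12.9 CPM, log2 fold change 0.67), Stat3 (0.37), Hif1a, Pparg, Il13ra1 and Csf1r. Hif1a is on both lists.

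Genes of the polyamine branch moved on both sides in AMPK-KO TAMs. Among regulators of Odc1, Myc, a transcription factor that activates it, fell from 58.5 ± 0.95 to 36.8 ± 0.85 CPM (log2 fold change −0.67, SE 0.06, adjusted p = 1.92e-05), and Mxd1, which opposes Myc, rose from 116 ± 2.76 to 153 ± 5.09 CPM (log2 fold change 0.39, SE 0.05, adjusted p = 3.02e-04). Of 10 genes of polyamine synthesis and its control, Mtap (−0.35) and Adi1 (−0.43), which recycle the methylthio group, fell and Amd1 (0.22), which makes the aminopropyl donor and may share reads with its close copy Amd2, rose. Of 7 genes of polyamine breakdown and transport, Aldh7a1 (−0.57) and Slc18b1 (−0.92) fell and the spermine oxidase gene Smox (0.18) rose. Of 4 hypusination genes, which use spermidine to modify the translation factor eIF5A, Dohh fell (−0.29).

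The citrullinating enzymes went opposite ways in AMPK-KO TAMs: Padi4 fell from 43.4 ± 1.27 to 18.8 ± 1.06 CPM (log2 fold change −1.21, SE 0.07, adjusted p = 1.85e-06) and Padi2 rose from 14.3 ± 0.11 to 25.1 ± 0.63 CPM (log2 fold change 0.81, SE 0.08, adjusted p = 4.63e-05). Of 7 genes that encode or control nitric oxide synthases, Ddah2, which clears inhibitory methylarginines, fell from 8.20 ± 0.99 to 4.47 ± 0.22 CPM (log2 fold change −0.87). Gch1, the first enzyme in making tetrahydrobiopterin, the cofactor of the synthase, was not called (−0.23, SE 0.09, adjusted p = 0.0983). Oat (−0.26), Gamt (−0.55) and the transporter subunit gene Slc3a2 (−0.16) fell, and Slc7a6 (0.40) rose. The genes past the first 15 by adjusted p are named here after their values were seen.

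By stage, 5 of the 74 pathway genes tested were higher and 7 lower, beside 4.31% and 4.88% of all genes tested (median log2 fold change −0.0022, against 0.0027 for all genes tested). The number called was 21 without early-stage replicate 1 and 7 without late-stage replicate 1 or late-stage replicate 2. Gatm, which takes arginine into creatine synthesis, rose from 156 ± 6.90 to 280.0 ± 3.13 CPM (log2 fold change 0.85, SE 0.07, adjusted p = 7.39e-05), and the creatine kinase gene Ckb rose from 329 ± 29.9 to 522 ± 18.2 CPM (0.67, SE 0.08, adjusted p = 8.96e-04). Padi4 fell from 15.9 ± 0.56 to 6.59 ± 1.18 CPM (log2 fold change −1.27). Among regulators of Arg1, the interleukin 4 and 13 receptor genes Il4ra (−0.46) and Il13ra1 (−0.50) and Hif1a (−0.61) fell and Pparg (0.30) rose. Among regulators of Nos2, Hif1a and Ifngr1 (−0.24) fell and Nfkb1 (0.26) rose, whereas Irf1 was not called (−0.23, SE 0.12, adjusted p = 0.271). Myc rose from 45.9 ± 6.66 to 74.6 ± 2.77 CPM (log2 fold change 0.70, SE 0.11, adjusted p = 0.00338) and Mxd1 fell from 119 ± 8.90 to 75.9 ± 2.06 CPM (log2 fold change −0.65), and Cav1, which binds and restrains the endothelial synthase, fell (−0.78). No gene was called on the lists of arginine uptake, tetrahydrobiopterin, ornithine to proline and glutamate, polyamine synthesis, polyamine breakdown or hypusination.

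**Figure D4:**
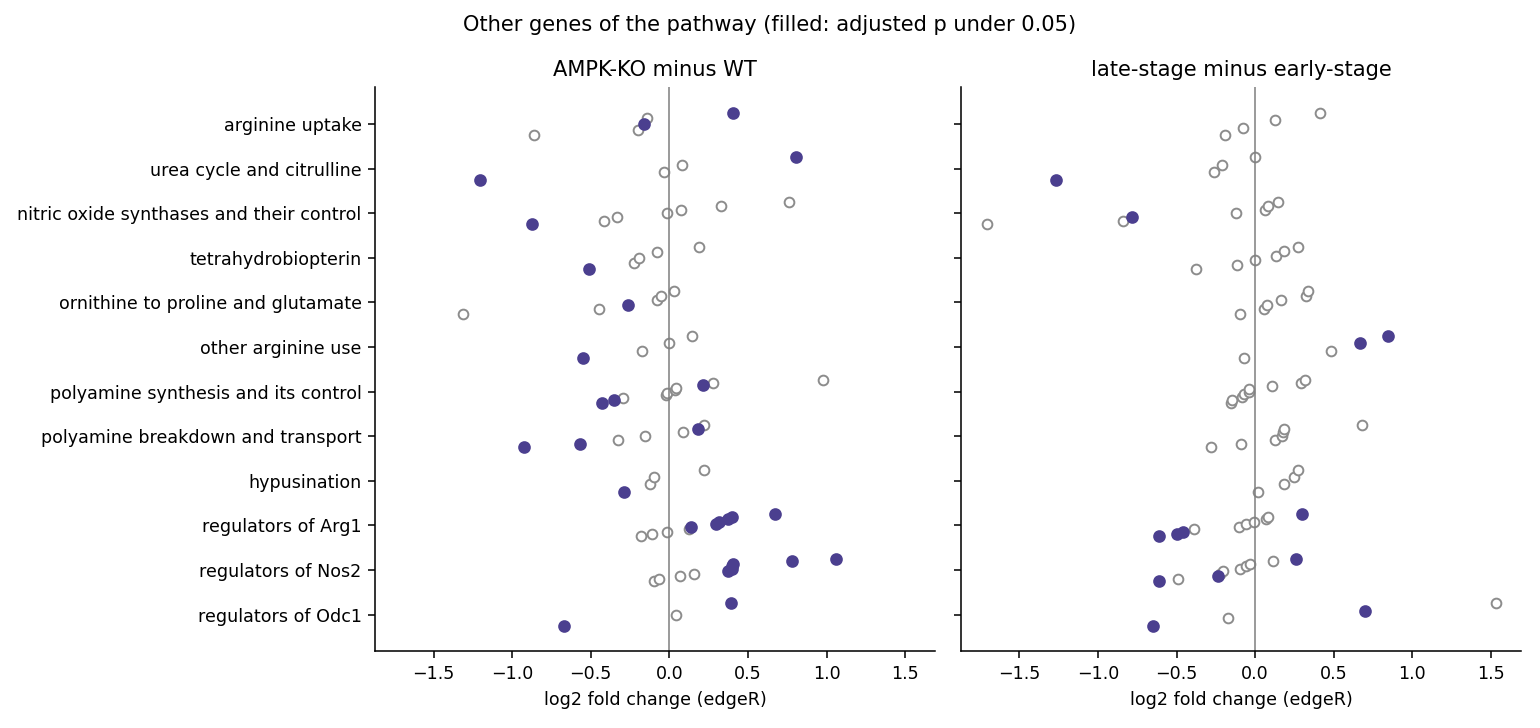
Log2 fold change (horizontal axis) of each tested pathway gene, arranged by list (vertical axis), in AMPK-KO against WT (left) and late-stage against early-stage TAMs (right); filled points have an adjusted p under 0.05. All 6 called regulators of Nos2 lie above 0 in AMPK-KO TAMs, and the called genes Myc and Mxd1, listed as regulators of Odc1, swap sides between the comparisons.

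Across the 12 libraries, with each table centred on its own mean, the genes whose log2 CPM followed Nos2 most closely of 16812 were Tnfrsf1b (Pearson r = 0.995), F10 (0.987), Acod1 (0.986), Csf2rb2 (0.983) and Il1b (0.981). All 5 were called higher in AMPK-KO and lower in late-stage TAMs, for example Acod1, which makes itaconate (log2 fold changes 0.94 and −1.30), and Il1b, the gene of interleukin 1 beta (1.05 and −1.12). Those closest to Arg1 were Saa3 (r = 0.994), Eif2s3y (0.993), Kdm5d (0.991), Sgms2 (0.987) and Ptgir (0.985). None of these 5 was called in AMPK-KO and all were lower in late-stage TAMs. Eif2s3y and Kdm5d are Y-linked and, like Uty, had no count in late-stage libraries. Among the 10 genes themselves, Nos2 ran with Arg2 (r = 0.965) and Slc7a2 (0.905) and against Srm (−0.942) and Odc1 (−0.925), and the value for Arg1 and Ass1 was 0.02. The libraries fall into 4 groups, so that these values describe group differences more than single libraries. The genes closest to Nos2 and to Arg1 were picked by r over these same libraries, so their calls largely follow from that choice.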

How the data were processed

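Bulk RNA-seq of sorted TAMs was performed in 4 groups of 3 samples. The authors mapped reads with HISAT2 and deposited the raw featureCounts read counts per gene, in 1 table per comparison, without normalization; tool versions, strand and the handling of multiply mapped reads are not given in the sources used here. The methods write GRCh38, whereas the submitters' processing notes name mm10 and GRCm38, and 54349 of 55401 identifiers match GENCODE M21 with their version. Coordinates come from that annotation and are left out for Nos2, whose version differed. No column was unused.

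Counts were filtered (filterByExpr), scaled by TMM and tested per table, without covariates, with the edgeR 4.0.16 quasi-likelihood test in R 4.3.3. P-values were adjusted by Benjamini-Hochberg over all genes tested, and SE is the log2 fold change divided by the root of F. Near-identical genes were found with BLAST 2.17.0 (at least 90% identity over 200 bases). On simulated counts of 17532 genes for AMPK-KO against WT, the test called 55 of 64 genes changed by 1 on the log2 scale and 9 of 68 changed by 0.5. For late-stage against early-stage with 17630 genes it called 40 of 64 and 3 of 68. Library totals of at least 71019494 counts make counting error small for all but the rarest genes. Replicates differed by 9.52 to 131 times the sampling noise (chi-square per degree of freedom), so none was counted as a repeat.

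The alternatives tried were other scaling factors (RLE, upper quartile), other filters, DESeq2 1.42.0, the replicate number as a block, each library left out and, added after seeing the data, counts of near-identical copies added to the gene. The 10 genes, the gene lists and the naming rule were set with earlier results of these data known. The rule names all 10 genes, up to 15 called pathway genes per comparison by adjusted p, the 5 genes most alike to Arg1 and to Nos2, and genes that check the labels. Some pathway genes that the rule would name are counted but not reported singly here.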

Additional observations from a re-analysis of the deposited data

How the results depend on the processing

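Of 260 refits of the 20 log2 fold changes, 231 kept direction and call, 13 lost the call and 16 changed sign, the latter only for genes that were not called. All 6 calls of AMPK-KO against WT held throughout, with 20 to 32 pathway genes called as single libraries were left out. By stage, leaving out a library gave 2 to 6 of the 10 genes and 7 to 21 pathway genes, and log2 fold changes of −1.13 to −0.92 for Arg2, −0.69 to −0.51 for Slc7a2, 0.34 to 0.49 for Odc1 and 0.44 to 0.62 for Srm. Without the filter, Srm was 0.51 (adjusted p = 0.0539) and no longer called. Values that changed sign lay near 0 when libraries were left out: Arg1 (−0.030 to 0.030) and Sat1 (−0.0040 to 0.074) in AMPK-KO, and by stage Ass1 (−0.075 to 0.030), Asl (−0.082 to 0.083), Sms (−0.036 to 0.078) and Sat1 (−0.14 to 0.0095). Arg1 was 0.00053 with DESeq2 in AMPK-KO, and Sms by stage −0.0043 with upper-quartile factors and −0.027 with copies added. The cause was not tested. Same-numbered samples did not deviate together (correlations −0.0039 to 0.042). With 3 samples per group this cannot show whether the numbers pair samples, and the labels do not say. The replicate block called 6 of the 10 genes in each comparison, with 29 pathway genes in AMPK-KO and 10 by stage. Over all genes, edgeR called 1619 by stage, DESeq2 2414 and the fit without the filter 936, and leaving out a library gave 653 (without late-stage replicate 2) to 2835 (without early-stage replicate 1). In AMPK-KO against WT it called 3693, and 2414 without WT replicate 3 or 2419 without AMPK-KO replicate 2. On the simulated counts, taken over all genes, changes of 0.5 on the log2 scale were mostly missed. Genes with a small SE were called at smaller changes, such as Odc1 in AMPK-KO (−0.26, SE 0.05), so that share does not apply to each of the 10 genes.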

Other observations

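The mitochondrial genes that feed the urea cycle in liver, Cps1, Otc and Nags, were at or near 0 in these TAMs. Cps1, which makes carbamoyl phosphate, had no count in early-stage, WT and AMPK-KO libraries and at most 46 in a late-stage library, and Otc, which joins it to ornithine, had at most 16 counts in any library. Nags, whose product activates the first of these enzymes, had at most 12, whereas Slc25a15, the mitochondrial ornithine carrier, had 682 to 1049. A count of 0 allows up to 3 counts in a library, by counting error only. Agmat, which hydrolyses agmatine, had no count in any of the 12 libraries. The other nitric oxide synthase genes were low, with 9 to 50 counts for Nos1 and 5 to 58 for Nos3 in a library, and neither was called in either comparison (adjusted p from 0.216 to 0.920). Of the tetrahydrobiopterin genes, Gchfr, the feedback regulator of Gch1, had at most 16 counts and Pcbd1 at most 30, whereas Gch1 had 2411 to 3217, Spr 2912 to 4421 and Qdpr 3211 to 4502.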
